A study of Mus musculus with 12 samples.

Results

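Integrins, the receptors that tie cells to the surrounding matrix, were examined together with the adaptor proteins that link them to actin, in endothelial cells (the cells lining vessels) sorted from mouse ear skin. The set was chosen by name and not by its values: 24 integrin subunit genes and 12 adaptor genes, 36 in all. A row of their own was found for 34 of the 36, out of 30787 genes with a row, and 29 of them were bright enough to be tested, out of 19701 genes tested. The 5 that were too dim were Itga4, Itgae, Itgam, Itgb6 and Fermt1. Itga1 was measured only by a row it shares with the gene Pelo, and no row was named for Ptk2, so neither is given a value.

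The study measured RNA with Affymetrix whole-transcript arrays in 4 groups of 3 arrays, labelled biological replicates, from C57BL6 mice of 5 weeks. Mice of every group, the blood vessel controls included, carried the reporter transgene Tg(Prox1-EGFP)KY221Gsat, in which the regulatory region of Prox1, the transcription factor of lymphatic identity, drives green fluorescence. Cells bearing PECAM1 were enriched on beads and sorted on podoplanin, the reporter and LYVE1. The level of LYVE1, a receptor for hyaluronan, then parted the lymphatic endothelial cells (LEC): high in those of capillaries (cap LEC), middling in those of pre-collectors (pre-col LEC), and low or absent in those of collectors (col LEC). The blood endothelial cells (BEC) bore PECAM1 and were negative for podoplanin, the reporter and LYVE1. The labels do not say whether an array stands for 1 mouse or a pool, so the p-values measure the spread between these samples, which may be technical.

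All levels are log2 array values as deposited, with array medians between 6.06 and 6.17, and a difference of 1.00 on this scale is a doubling. Arrays of a group correlated at 0.971 to 0.988 over the genes tested, and LEC with BEC arrays at 0.904 to 0.923. The sort followed its labels: the summed level of 6 lymphatic marker genes lay at 14.66 to 15.31 in the LEC arrays and at 10.29 to 11.26 in the BEC arrays, and that of 8 blood endothelial markers at 11.79 to 12.34 and at 14.66 to 14.89. The lymphatic list named Prox1, Pdpn (podoplanin) and Lyve1, and the sort used the Prox1 reporter, podoplanin and LYVE1, so this check partly repeats the sort. The highest lymphatic sum among BEC belonged to BEC replicate 1. The summed level of 10 mural genes, markers of the pericytes and smooth muscle cells that wrap vessels, was 12.86 to 13.15 in BEC and 10.09 to 12.04 in LEC, with pre-col LEC replicate 1 the highest LEC array. These arrays are followed below where a result rests on them. In sorted populations, fewer cells of a type and less RNA per cell cannot be told apart.

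An integrin is a pair of an alpha and a beta subunit, and the pair decides which matrix protein or cell surface protein is bound. Talins and kindlins bind the tail of the beta subunit and switch the receptor on, while the complex of ILK, PINCH (Lims1, Lims2) and parvin, together with vinculin and paxillin, connects it to actin and to signalling. In endothelium, integrins hold the cell to its basement membrane and to provisional matrix, and alpha9 is known for its role in lymphatic valves.

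The LEC groups together differed from BEC in both directions, subunit by subunit. Among integrin genes, Itgb3, Itgav, Itga9, Itgb8, Itgb4 and Itgb2 were higher in LEC, while Itgb5, Itga2, Itga7, Itga6, Itga5 and Itga3 were lower. Among adaptors, Lims1, Parva and Pxn were higher and Vcl and Fermt2 lower. Of the 29 members tested, 17 passed limma's test at an adjusted p under 0.05, 9 of them higher and 8 lower in LEC, where 22.6% of all genes tested were called (12.1% higher and 10.6% lower). The median of the absolute log2 difference was 0.43 over the members and 0.14 over all genes, and the signed medians were -0.09 and -0.02. LEC and BEC arrays did not overlap for 16 members, as was the case for 17.8% of all genes. Itga2 had passed the filter on dim genes only through BEC arrays and Itgb8 only through LEC arrays, so these counts include a pair of genes that the filter itself favoured. Without BEC replicate 1, 16 members were called, 9 higher and 7 lower. The loss was Itga2, which fell below the filter there.

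**Figure D1:**
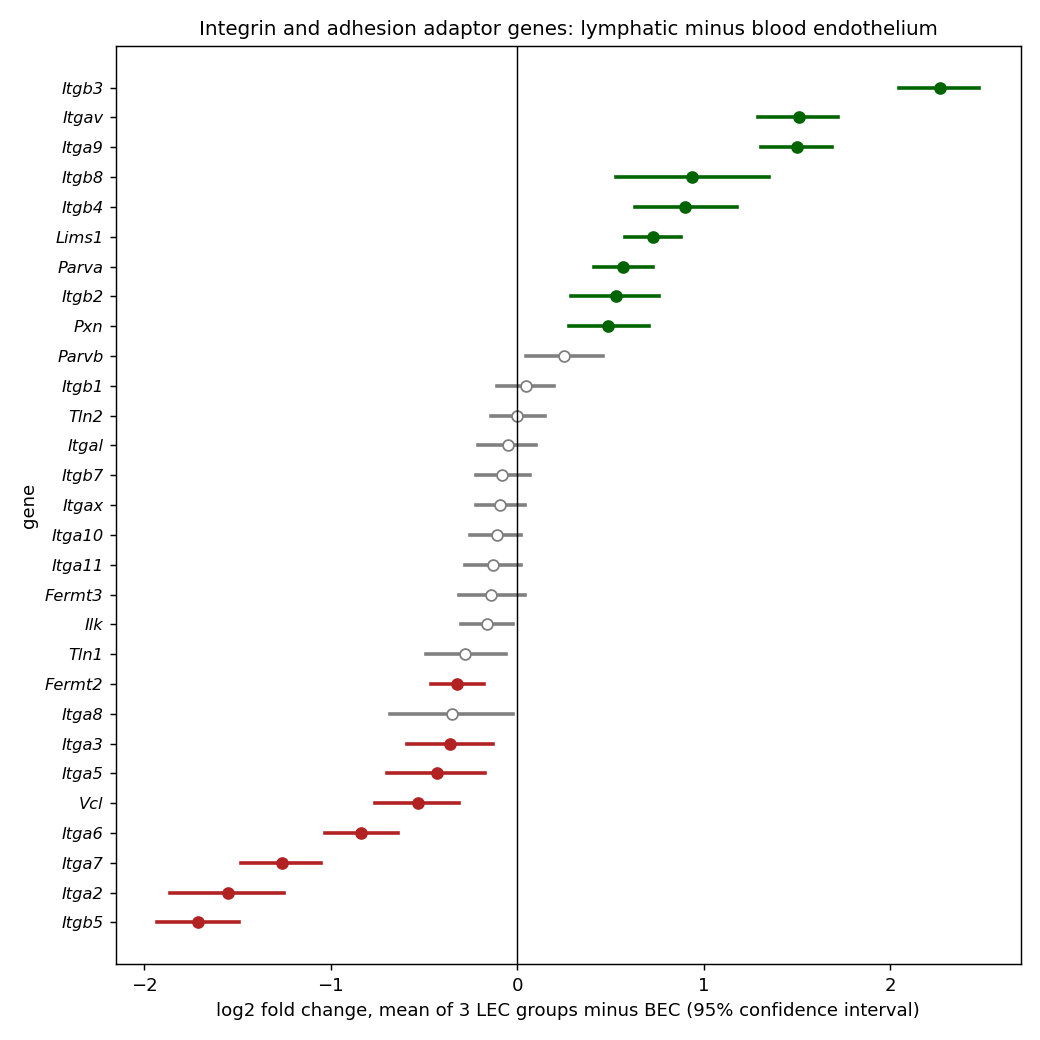
The horizontal axis gives the log2 difference between LEC (averaged over the 3 groups) and BEC for the 29 members tested, with points at the estimate and lines at limma's 95% interval. Filled green points were called higher in LEC, filled red points lower, and open grey points were not called. Itgb3 lies farthest to the right at 2.27 and Itgb5 farthest to the left at -1.71.

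The alphav family of receptors, which bind vitronectin, fibronectin and latent TGF-beta, showed the most opposed pair. Itgb3, the beta partner in the alphavbeta3 receptor, lay at 9.67, 9.70 and 9.62 in cap LEC, 9.50, 9.65 and 9.46 in pre-col LEC, 9.45, 9.20 and 9.50 in col LEC and 7.01, 7.32 and 7.46 in BEC. Every LEC array was thus above every BEC array, by a log2 difference of 2.27 ± 0.10 (SE, 9 against 3 arrays, 4.81-fold, adjusted p = 5.21e-09 by limma). Itgb5, the other common beta partner of alphav in endothelium, ran the opposite way. It lay between 6.76 and 7.27 in LEC, with a median of 6.86, and at 8.57, 8.75 and 8.64 in BEC. The difference was -1.71 ± 0.10, which is 3.27-fold lower in LEC (adjusted p = 8.29e-08), and no LEC array reached a BEC array.

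Itgav, the alpha subunit that both share, lay at 8.94, 8.78 and 9.17 in cap LEC, 8.74, 8.72 and 8.92 in pre-col LEC, 8.85, 8.76 and 8.71 in col LEC and 7.39, 7.49 and 7.13 in BEC. It was 2.84-fold higher in LEC, at 1.51 ± 0.10 (adjusted p = 1.97e-07), without overlap. Itgb8, a further alphav partner that presents latent TGF-beta, was dim: its LEC arrays spread from 5.94 to 7.06 with a median of 6.70, and its BEC arrays were at 5.72, 5.64 and 5.75. Its BEC values lie under the array medians, so the difference of 0.94 ± 0.19 (adjusted p = 0.00296) may be compressed. The remaining alphav partners gave no difference to read. Itgb6, an epithelial subunit, stayed at 5.10 to 5.42 on all 12 arrays and was not tested. Itgb1, the common beta subunit of most other integrins, lay at 10.52 to 10.75 in LEC, with a median of 10.70, and at 10.64, 10.78 and 10.49 in BEC. Its difference of 0.05 had a 95% interval of -0.11 to 0.20 (adjusted p = 0.676), and its sign turned under other settings, to -0.09 with cyclic loess, to -0.02 with array weights and to -0.03 without BEC replicate 3.

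Promoters were looked up for the members called with measured values at least 2-fold apart between LEC and BEC. Itga2 is among these genes by its measured values only, since its LEC values lay below the array medians. RefSeq's promoter table (GRCm38.p6) held 1 entry for 4 of these 6 genes. The entry for Itga9 begins 104983 bases inside the gene and is left out, and Itgb3 and Itga7 have none. Each run is the 250 bases that end just before the annotated start, 5′ to 3′ on the gene's strand, with motif matches in capitals.
Itgb5, chr16:33829415-33829664, plus strand: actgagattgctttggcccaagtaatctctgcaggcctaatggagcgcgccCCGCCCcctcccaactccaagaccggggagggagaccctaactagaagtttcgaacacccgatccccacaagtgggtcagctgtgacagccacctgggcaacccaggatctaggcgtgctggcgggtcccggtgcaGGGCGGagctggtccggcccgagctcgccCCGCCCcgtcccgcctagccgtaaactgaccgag
Itga2, chr13:114932101-114932350, minus strand: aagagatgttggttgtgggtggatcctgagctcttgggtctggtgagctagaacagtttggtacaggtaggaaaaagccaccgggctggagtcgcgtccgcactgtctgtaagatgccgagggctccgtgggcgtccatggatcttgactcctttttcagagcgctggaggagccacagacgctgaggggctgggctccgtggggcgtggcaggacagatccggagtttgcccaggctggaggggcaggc
Itgav, chr2:83724147-83724396, plus strand, a start 2094 bases inside the gene's edge: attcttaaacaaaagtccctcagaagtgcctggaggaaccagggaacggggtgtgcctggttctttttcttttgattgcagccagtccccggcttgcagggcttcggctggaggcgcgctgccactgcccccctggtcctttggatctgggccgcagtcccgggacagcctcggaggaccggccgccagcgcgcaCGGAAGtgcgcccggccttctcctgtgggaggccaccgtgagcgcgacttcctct
All motifs were searched on both strands. The GC box, read as GGGCGG, occurred 3 times in the Itgb5 promoter, and 32.7% of 32851 RefSeq promoters of this length hold at least 1. The core bound by ETS factors, read as CGGAAG, occurred once in the Itgav promoter and in 13.6% of all promoters. An AP-1 site, read as TGANTCA and present in 6.7% of promoters, occurred in none of the 3 windows shown. The same was true of the TATA box, read as TATAAA and present in 12.4% of promoters. A GATA site, read as AGATAA and present in 10.0% of promoters, was not found in them either, and the Itga2 window held no match to any of these motifs. Base composition was GC-rich in each, at 65.2% in Itgb5, 60.8% in Itga2 and 64.4% in Itgav against a median of 52.4%. A match is a run of letters and not a measured binding site.

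Itga9, which pairs with beta1 and binds tenascin, fibronectin's EIIIA segment and other matrix proteins, was also higher in LEC. It lay at 10.70, 10.86 and 10.73 in cap LEC, 10.51, 10.77 and 10.69 in pre-col LEC, 10.55, 10.74 and 10.68 in col LEC and 9.36, 9.21 and 9.01 in BEC. LEC arrays were all above BEC arrays, at 1.50 ± 0.09 or 2.82-fold (adjusted p = 7.22e-08), and the LEC groups overlapped one another. Itga4, the alpha subunit closest to alpha9 in the family, lay at 5.18 to 5.56 on all 12 arrays, below the array medians, and was not tested.

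**Figure D2:**
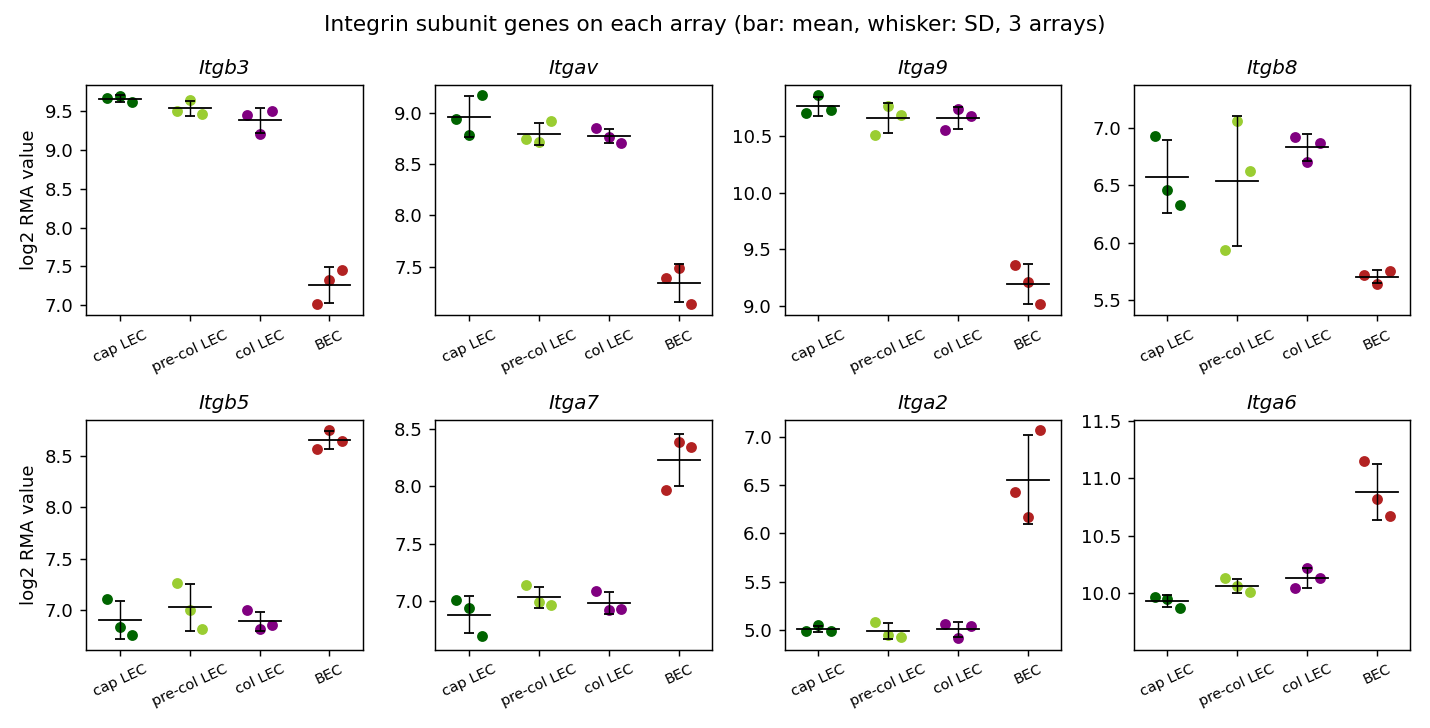
Each panel shows 1 integrin gene, with the log2 array value on the vertical axis, a dot per array of the 3 LEC groups and BEC, a bar at the group mean and a whisker of 1 SD (n = 3). Itgb3, Itgav, Itga9 and Itgb8 sit higher in the LEC groups and Itgb5, Itga7, Itga2 and Itga6 in BEC, with LEC and BEC dots apart in every panel.

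Laminin receptors split by subunit. Itga6, the alpha subunit of the laminin receptors alpha6beta1 and alpha6beta4, lay at 9.87 to 10.22 in LEC (median 10.05) and at 11.15, 10.82 and 10.67 in BEC, lower in LEC by a difference of -0.84 ± 0.09 (adjusted p = 1.93e-05). Itgb4, its hemidesmosomal partner, moved the other way, with 10.20 to 10.89 in LEC (median 10.71) and 9.62, 9.71 and 9.88 in BEC, a difference of 0.90 ± 0.13 (adjusted p = 0.000193). Neither gene's LEC and BEC arrays overlapped. The epidermis is rich in both genes, and the summed level of 8 keratinocyte markers was 9.26 to 9.73 in LEC and 9.59 to 10.00 in BEC. Of the 5 markers tested, 2 were called lower in LEC, beside 10.6% of all genes. The part of keratinocyte RNA in the Itga6 and Itgb4 values was not tested.

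Itga7, the laminin receptor subunit of muscle, lay at 6.70 to 7.14 in LEC (median 6.97) and at 7.97, 8.38 and 8.34 in BEC. It was 2.40-fold lower in LEC, at -1.26 ± 0.10 (adjusted p = 1.3e-06). Smooth muscle cells and pericytes are known to express Itga7. Of 10 mural markers, 9 were called lower in LEC as well, beside 10.6% of all genes. Rgs5, a pericyte gene, was at 11.82, 11.40 and 11.12 in BEC. Acta2, smooth muscle actin, was at 9.91, 10.70 and 10.37 in BEC. The part of mural RNA in the Itga7 difference was not tested, nor was it for the other genes called lower in LEC. Pre-col LEC replicate 1, the LEC array with the highest mural sum (Rgs5 10.21 and Acta2 10.21), is one of 9 LEC arrays that all lay below BEC for Itga7.

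Itga8, a receptor subunit for nephronectin that is likewise known from smooth muscle and other stromal cells, was highest on that array. It lay at 5.86, 6.17 and 6.08 in cap LEC, 7.00, 6.15 and 6.35 in pre-col LEC, 6.18, 6.29 and 6.57 in col LEC and 6.65, 6.66 and 6.62 in BEC. The LEC minus BEC difference was -0.35 ± 0.15 and not called (adjusted p = 0.127), and without that array it was -0.43 and called (adjusted p = 0.00786). The summed level of 8 fibroblast markers also stood apart there: it was 11.83 on pre-col LEC replicate 1, 9.94 to 11.03 on the other LEC arrays and 10.69 to 10.93 in BEC. Itga8 and the fibroblast sum were thus above every BEC array there, and the mural sum of 12.04 was below them. The mural genes differed on that array, with Acta2 within the range of its BEC values and Rgs5 below its own. The part of mural and of fibroblast RNA in the Itga8 value was not tested. Against BEC, cap LEC alone gave -0.60 and a call (adjusted p = 0.0373), which was lost in each of the 6 fits that left out 1 array.

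**Figure D3:**
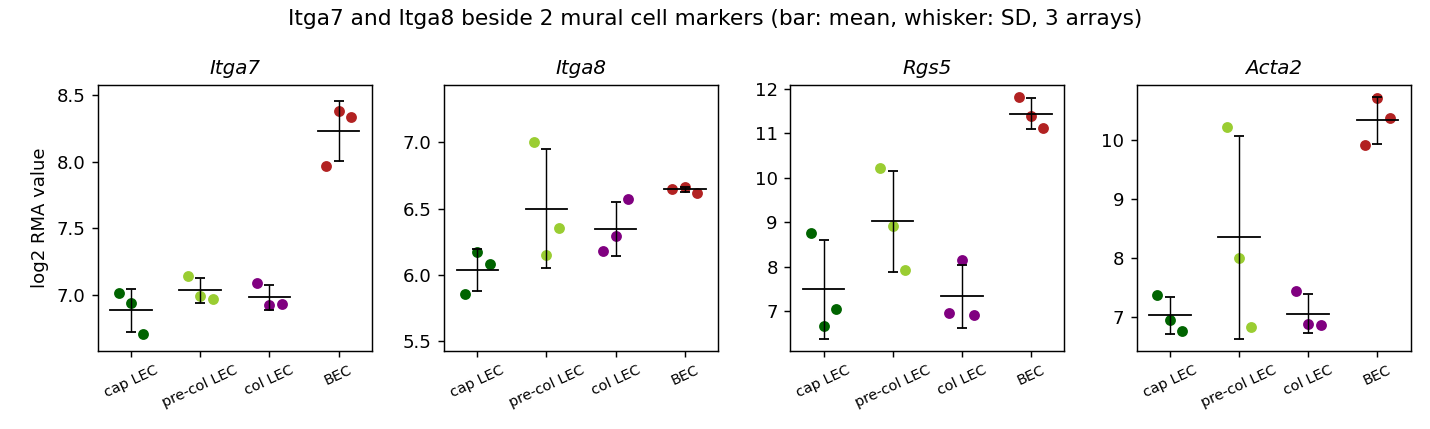
Panels give the log2 array value of Itga7, Itga8 and the mural genes Rgs5 and Acta2 on each array of the 4 groups, with a bar at the mean and a whisker of 1 SD (n = 3). The pre-col LEC dot at 7.00 for Itga8 is the same array as the pre-col dots at 10.21 for Rgs5 and Acta2.

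A collagen receptor subunit and the fibronectin receptor subunit were lower in LEC. Itga2, a collagen receptor subunit, lay at 4.92 to 5.08 in LEC, below the array medians, and at 6.43, 6.17 and 7.07 in BEC. The difference of the measured values was -1.55 ± 0.14 (adjusted p = 4.61e-06). Its LEC values are at the low end of the scale, so this may understate the difference, and no fold is read from it. The gene was tested only because its 3 BEC arrays passed the filter, and it fell below the filter when any of them was left out. Itga10 and Itga11, further collagen receptor subunits, were at 6.58 to 6.90 and 6.51 to 6.85 over all 12 arrays and were not called (differences of -0.11 and -0.13). Itga5, the classical fibronectin receptor subunit, lay at 10.53 to 11.13 in LEC (median 10.94) and at 11.23, 11.42 and 11.28 in BEC. Its arrays did not overlap, at -0.43 ± 0.12 (adjusted p = 0.0232). That call was lost without BEC replicate 2 (-0.38, adjusted p = 0.0936) and without BEC replicate 3 (-0.45, adjusted p = 0.0714).

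Of the leukocyte integrins, Itgb2 was called. This beta subunit lay at 6.96 to 7.71 in LEC (median 7.09) and at 6.72, 6.71 and 6.77 in BEC, a difference of 0.53 ± 0.11 (adjusted p = 0.0037). Its alpha partners were not called or not tested. Itgal lay at 6.32 to 6.62 and Itgax at 5.96 to 6.27 over the 12 arrays, neither called, and Itgam at 5.85 to 6.10 was too dim to test. Itgae, the alpha subunit that binds E-cadherin, lay at 5.92 to 6.11 and was too dim as well, and its partner Itgb7 at 7.31 to 7.64 was not called. The summed level of 7 general leukocyte markers was 9.19 to 9.43 in LEC and 9.26 to 9.40 in BEC. Only 4 of the 7 were bright enough to be tested, and 0 were called, beside 22.6% of all genes. Macrophage and dendritic cell markers spanned 9.33 to 10.03 in LEC and 9.40 to 9.78 in BEC, with 0 of 6 called, beside the same 22.6%. T cell markers summed to 10.23 to 10.76 in LEC and 9.10 to 9.48 in BEC. Of the 4 tested, 2 were called higher, beside 12.1% of all genes. These were Thy1, which lymphatic endothelium is also known to express, and Cd2. The 2 called were the only ones of the 4 with a difference above 0. The part of T cell or other leukocyte RNA in the Itgb2 difference was not tested.

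In the ILK complex, the PINCH genes ran in opposite directions. Lims1, which encodes PINCH1, lay at 9.85 to 10.08 in LEC (median 10.01) and at 9.32, 9.36 and 9.11 in BEC, a difference of 0.73 ± 0.07 (adjusted p = 5.01e-06). Lims2, which encodes the second PINCH and was taken from a list of further adaptors, was lower in LEC. It lay at 6.64 to 7.88 in LEC and at 12.07, 12.03 and 11.77 in BEC, lower by -4.81 ± 0.16 (adjusted p = 7.81e-10). The scaffold kinase Ilk lay at 9.71 to 10.04 in LEC (median 9.86) and at 9.95, 10.14 and 9.95 in BEC. Its difference of -0.16 ± 0.06 was not called (adjusted p = 0.1) but was called at -0.28 with cyclic loess (adjusted p = 0.00247) and at -0.22 with array weights (adjusted p = 0.0419). In pre-col LEC alone Ilk was lower than in BEC by -0.28 (adjusted p = 0.0307, kept in 2 of 6 fits that left out 1 array). Of the parvins, which link ILK to actin, Parva lay at 10.08 to 10.52 in LEC and at 9.82, 9.72 and 9.71 in BEC, higher by 0.57 ± 0.07 (adjusted p = 0.000112). Parvb overlapped between LEC (10.17 to 10.84) and BEC (10.32, 10.21 and 10.24) and was not called, at 0.25 ± 0.09 (adjusted p = 0.0717), except without col LEC replicate 1 (0.29, adjusted p = 0.0231). In cap LEC alone it was higher than in BEC, at 0.43 (adjusted p = 0.0186, kept in 3 of 6 fits that left out 1 array).

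The activators showed small differences. Fermt2, kindlin-2, the kindlin of most tissues, lay at 10.59 to 10.82 in LEC (median 10.77) and at 11.07, 11.13 and 10.93 in BEC, lower by -0.32 ± 0.06 (adjusted p = 0.003) with no overlap. Fermt3, the kindlin of blood cells, lay at 6.65 to 7.17 in LEC and 6.86 to 7.12 in BEC and was not called (-0.14, adjusted p = 0.261), and Fermt1, that of epithelia, lay at 5.08 to 5.32 and was too dim to test. Tln1, the main talin of endothelium, lay at 9.58 to 10.14 in LEC (median 9.87) and at 10.06, 10.13 and 10.16 in BEC. Its difference of -0.28 ± 0.10 was not called (adjusted p = 0.0652), but was at -0.40 with cyclic loess (adjusted p = 0.00957), at -0.31 without col LEC replicate 2 (adjusted p = 0.0409) and at -0.32 without pre-col LEC replicate 2 (adjusted p = 0.0229). In col LEC alone it was lower than in BEC by -0.40 (adjusted p = 0.0432, kept in 1 of 6 fits that left out 1 array). Tln2 showed 0.00 with a 95% interval of -0.14 to 0.15. Of the actin-side adaptors, Vcl, vinculin, lay at 9.90 to 10.34 in LEC and at 10.93, 10.59 and 10.67 in BEC (-0.53 ± 0.10, adjusted p = 0.00253), and the signalling scaffold Pxn, paxillin, at 9.83 to 10.45 and at 9.70, 9.74 and 9.77 (0.49 ± 0.10, adjusted p = 0.00272). Both pairs of groups were free of overlap, in opposite directions. The part of mural RNA in the lower LEC values of Vcl, Fermt2 and Lims2 was not tested.

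**Figure D4:**
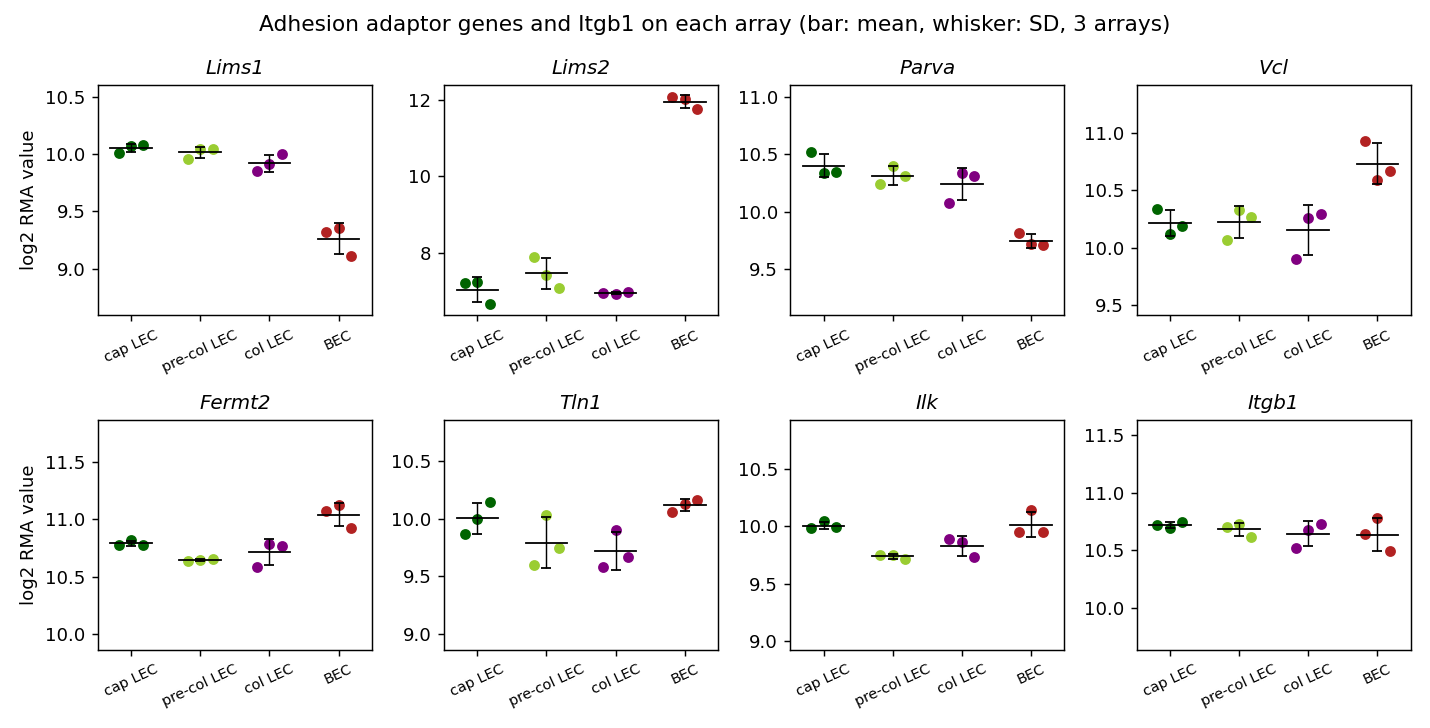
Each panel gives the log2 array value of 1 gene on each array of the 4 groups, with a bar at the mean and a whisker of 1 SD (n = 3). Lims1 and Parva sit higher in LEC, Vcl and Fermt2 lower, Lims2 falls from about 12 in BEC to between 6.64 and 7.88 in LEC, and Tln1, Ilk and Itgb1 overlap.

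Each LEC group was also set against the same 3 BEC arrays, which the 3 comparisons share. In cap LEC 19 members were called (10 higher, 9 lower), in pre-col LEC 16 (8 and 8) and in col LEC 14 (7 and 7), where 20.7%, 15.5% and 16.3% of all genes were called. The shares of all genes called higher were 11.2%, 7.39% and 8.32%, and those called lower 9.57%, 8.16% and 7.94%, in the same order. Itga3, a laminin receptor subunit, had the most unequal values of the 29: -0.77 in cap LEC (adjusted p = 0.000926), -0.45 in pre-col LEC (adjusted p = 0.0325, kept in 2 of 6 fits that left out 1 array) and 0.15 in col LEC (adjusted p = 0.513). Its call for the LEC mean, -0.36 ± 0.10 (adjusted p = 0.028), therefore averages unlike groups and was lost without BEC replicate 3 (-0.19, adjusted p = 0.128). For Itgb2 the differences were 0.85 in cap LEC (adjusted p = 0.000563), 0.42 in pre-col LEC (adjusted p = 0.0524) and 0.30 in col LEC (adjusted p = 0.166). For Pxn they were 0.69 (adjusted p = 0.00124), 0.48 (adjusted p = 0.0156) and 0.31 (adjusted p = 0.108). A call in 1 LEC group and not in another is no test between them; the direct comparisons follow.

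Between the LEC groups, 1 member passed the test. Itga3 was higher in collecting than in capillary LEC, with values of 8.67, 8.66 and 8.49 in col LEC, 7.98, 8.01 and 8.02 in pre-col LEC and 7.80, 7.65 and 7.60 in cap LEC. The groups did not overlap, and pre-col LEC lay between the others on every array. The col minus cap difference was 0.92 ± 0.13 (95% interval 0.64 to 1.20, 1.89-fold, adjusted p = 0.00295), and it was called in all 6 fits that left out 1 array, at 0.88 to 0.98. BEC, at 8.24, 8.33 and 8.80, overlapped col LEC. In this comparison 1.66% of all genes were called (0.660% higher and 1.00% lower), against 1 of 29 members. The steps were smaller and not called: 0.60 ± 0.13 from pre-col to col LEC (adjusted p = 0.107, but 0.57 and 0.013 with array weights) and 0.32 ± 0.13 from cap to pre-col LEC (adjusted p = 0.774).

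Other members had groups apart without passing. Itgb2 was at 7.37, 7.69 and 7.71 in cap LEC, 6.96, 7.49 and 7.02 in pre-col LEC and 7.01, 7.09 and 7.01 in col LEC, a col minus cap difference of -0.55 ± 0.13 (adjusted p = 0.0697). That value passed with array weights (-0.59, adjusted p = 0.016). Pxn was at 10.40, 10.44 and 10.45 in cap LEC, 10.01, 10.42 and 10.23 in pre-col LEC and 9.83, 10.26 and 10.06 in col LEC (-0.38 ± 0.12, adjusted p = 0.201). Both genes had their highest arrays in cap LEC, with no col LEC array as high as any of cap LEC. The summed T cell markers lay at 10.63 to 10.72 in cap LEC, 10.25 to 10.76 in pre-col LEC and 10.23 to 10.37 in col LEC. Between col and cap LEC, 0 of the 4 tested were called (1.66% of all genes). By limma, 2 of them had an unadjusted p under 0.05, as did 2066 of the 19701 genes tested. The part of T cell RNA in these Itgb2 values was not tested. Fermt3 lay the other way, at 6.85, 6.82 and 6.65 in cap LEC, 6.86, 6.95 and 6.79 in pre-col LEC and 7.17, 7.03 and 6.93 in col LEC (0.27 ± 0.10, adjusted p = 0.309). Of the 29 members, 12 had col and cap LEC arrays that did not overlap, as did 20.8% of all genes. An unadjusted limma p under 0.05 was found for 8 of the 29 and for 2066 of the 19701 genes tested.

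**Figure D5:**
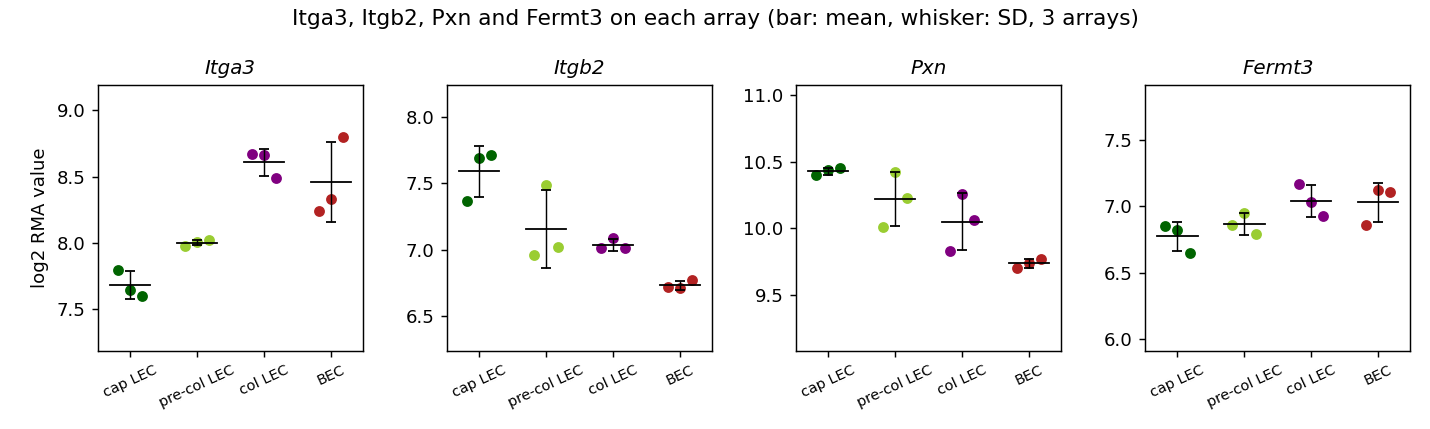
Panels give the log2 array values of Itga3, Itgb2, Pxn and Fermt3 on each array of the 4 groups, with a bar at the mean and a whisker of 1 SD (n = 3). Itga3 steps up from 7.60 to 7.80 in cap LEC to 8.49 to 8.67 in col LEC, the 1 difference between LEC groups that was called among the members.

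No member was called between pre-collecting cells and either neighbour. Against cap LEC, 0 of 29 members passed limma's test (0.00% of all genes) and 6 had groups without overlap (14.2% of all genes). By limma, 4 members had an unadjusted p under 0.05, as did 1261 of the 19701 genes tested. From pre-col to col LEC, 0 members passed (0.299% of all genes) and 1 had groups without overlap (11.3% of all genes). An unadjusted limma p under 0.05 was found for 1 member and for 1154 of the 19701 genes tested. The median absolute difference of the members was 0.14 between col and cap LEC, 0.12 between pre-col and cap LEC and 0.07 between col and pre-col LEC, beside 0.10, 0.09 and 0.07 over all genes. The genes with the largest differences between LEC and BEC had smaller ones along the lymphatic tree, and none of these was called. Col minus cap was -0.28 ± 0.12 for Itgb3 (adjusted p = 0.412), -0.19 ± 0.12 for Itgav (adjusted p = 0.623), -0.11 ± 0.11 for Itga9 (adjusted p = 0.751) and -0.01 ± 0.12 for Itgb5 (adjusted p = 0.983). The 95% intervals allow a fall of up to -0.54 for Itgb3, whose col LEC arrays all lay below cap LEC, and a change between -0.28 and 0.26 for Itgb5.

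A list of matrix and cell surface genes was also read. They are called ligands for short, though some, such as Adamtsl1 and Ltbp1, are not established ligands of these receptors. Of 34 ligand genes tested, 23 were called between LEC and BEC, 10 higher and 13 lower in LEC, beside 22.6% of all genes (12.1% higher and 10.6% lower), and the median difference was -0.28 against -0.02 over all genes. Higher were the tenascin Tnxb (2.20 ± 0.08, adjusted p = 1.17e-09), Adamtsl1 (2.12), Fn1, which encodes the fibronectin bound by alpha5 and alphav receptors (1.13 ± 0.09, adjusted p = 1.56e-06), and the elastic fibre protein Fbln5 (1.02). Lower were Vwf, von Willebrand factor (-3.80 ± 0.13, adjusted p = 8.3e-10), Vcam1, the counter-receptor of alpha4beta1 (-2.08), and the laminin chains Lama3 (-1.88) and Lama5 (-1.69). Vwf was also 1 of the 8 blood endothelial markers whose sum is given above. Along the lymphatic tree 2 of the 34 ligands were called between col and cap LEC, where 1.66% of all genes were: Tnxb fell (-1.07, adjusted p = 0.00013) and Ltbp1, which holds latent TGF-beta in the matrix, rose (0.74, adjusted p = 0.0317). The Ltbp1 call was kept in 1 of 6 fits that left out 1 array (adjusted p up to 0.124, without col LEC replicate 2). From pre-col to col LEC, Tnxb alone was called (-0.57, adjusted p = 0.0325), beside 0.299% of all genes, and this too was kept in 1 of 6 such fits (adjusted p up to 0.138, without col LEC replicate 1). From cap to pre-col LEC none of the 34 passed limma's test (0.00% of all genes). An unadjusted p under 0.05 was found for 3 of them and for 1261 of the 19701 genes tested.

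Of 35 further adaptors tested, 17 were called between LEC and BEC, 6 higher and 11 lower, beside 22.6% of all genes (12.1% higher and 10.6% lower), and the median difference was -0.03 against -0.02. Beside Lims2, the FAK relative Ptk2b (-1.75) and the LIM proteins Pdlim1 (-1.25) and Pdlim5 (-0.78) were lower, and the signalling adaptor Shc1 (1.26), zyxin (Zyx, 0.55), Git1 (0.41) and the actin cross-linker Actn1 (0.40) were higher. With cyclic loess Git1 (adjusted p = 0.0771) and Actn1 (adjusted p = 0.0654) were not called. In col against cap LEC 4 of the 35 were called, all lower, beside 1.66% of all genes called and 1.00% called lower. These were Fyn, a Src-family kinase (-0.69, adjusted p = 0.000577), the Arf GTPase regulator Asap1 (-0.82, adjusted p = 0.00328), Sorbs3, which encodes the vinculin-binding vinexin (-0.45, adjusted p = 0.0222), and the tensin Tns1 (-0.41, adjusted p = 0.0248). Sorbs3 kept its call in 2 of 6 fits that left out 1 array (highest adjusted p = 0.104, without cap LEC replicate 2) and Tns1 in 0 of 6 (highest adjusted p = 0.0968, without col LEC replicate 1), while Fyn and Asap1 kept theirs in all 6. From pre-col to col LEC 1 was called, Fyn (-0.43, adjusted p = 0.0468), which was lost whenever 1 array was left out (with adjusted p up to 0.193, at the loss of col LEC replicate 1). From cap to pre-col LEC none passed limma's test (0.00% of all genes). An unadjusted p under 0.05 was found for 6 of the 35 and for 1261 of the 19701 genes tested.

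Of 19 regulators of integrin activity or traffic tested, 12 were called between LEC and BEC, 6 in each direction. Of all genes, 22.6% were called (12.1% higher and 10.6% lower). The endocytic adaptor Dab2 (1.10), the urokinase receptor Plaur (1.06) and the tetraspanins Cd9 (0.84) and Tspan18 (0.82) were higher. For Tspan18 this averages unlike groups, at 1.25 in cap LEC, 0.92 in pre-col LEC and 0.29 in col LEC against BEC. In col LEC it was not called by limma (adjusted p = 0.122), and its LEC and BEC arrays overlapped. The Rap1 exchange factor Rapgef1 (-1.14), the tetraspanin Cd81 (-0.77), the talin-binding Kank4 (-0.61) and filamin A (Flna, -0.44) were lower. Tspan18 was the 1 regulator called between col and cap LEC (-0.96, adjusted p = 0.00105, kept in all 6 fits that left out 1 array). In this comparison 1.66% of all genes were called, and 1.00% were called lower. Neither of the 2 other integrin genes tested, the platelet subunit Itga2b and the leukocyte subunit Itgad, was called for the LEC mean. By limma, Itga2b had an unadjusted p of 0.0119, and 6688 of the 19701 genes tested had one under 0.05. In cap LEC alone Itga2b was lower than in BEC by -0.36 (adjusted p = 0.0249).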

How the data were processed

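RNA from 4 sorted cell groups (3 arrays each, 12 in all, 500 pg of RNA amplified per array) was measured on Affymetrix whole-transcript arrays. The authors deposited log2 values. Per the submitters' processing notes they come from RMA, a method that removes background, equalises distributions and summarises probes, so that weak signals are compressed and changes of total RNA hidden. Its software version is not given in the sources used here.

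Rows were named from the platform annotation, with 825 symbols updated through a RefSeq table. Of 72688 rows, 31265 named 1 gene, and the 1485 naming several were not used. A gene was represented by its brightest row (each of the 34 members with a row had 1) and tested if brighter than the median row of the array on 3 or more arrays. Group means were fitted with limma 3.58.1 (R 4.3.3) on all arrays, with two-sided moderated tests (prior and residual degrees of freedom 3.63 and 8) and Benjamini-Hochberg adjustment over 19701 genes, called under 0.05. Errors are standard errors. The median SD within groups was 0.141, and the number of arrays limits the precision. Marker sums are the log2 of summed unlogged values. The fit was tested on simulated data. Data were joined with pandas 2.3.3 in Python 3.11.15 and plotted with matplotlib 3.10.9.

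Values are given for each member called between LEC groups, for the 8 higher and 8 lower members of largest difference between LEC and BEC, and for Itga1, Itga2, Itga5, Itga9, Itgav, Itgb1, Itgb3, Tln1, Fermt2 and Ilk (Itga1 had no row of its own), with the rest as ranges. Pxn, Fermt3 and Itga8 are given in full as well, and Parvb by its range, chosen after their values were seen. The alternatives for the further lists were also added after seeing the data. Up to 4 called genes per further list and direction were named. Members and lists were chosen with earlier results of these data known.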

Additional observations from a re-analysis of the deposited data

Results flagged for a closer look

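The difference from BEC was unequal between LEC groups for 8 genes named above, by limma's direct test between the groups with Benjamini-Hochberg adjustment. From cap to col LEC it moved by 0.92 for the member Itga3 and, among the further lists, by 0.74 for Ltbp1, -1.07 for Tnxb, -0.96 for Tspan18, -0.82 for Asap1, -0.69 for Fyn, -0.45 for Sorbs3 and -0.41 for Tns1. From pre-col to col LEC it moved by -0.43 for Fyn and -0.57 for Tnxb. The calls for Tns1, and for Fyn from pre-col to col LEC, were lost whenever 1 array was left out.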

How the results depend on the processing

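Alternatives were cyclic loess, no filter on dim genes, the mean of all rows of a gene, array weights, a fit of only the groups compared, a replicate block, and leaving out each array in turn. Between col and cap LEC, 327 genes and 1 member were called, 797 and 2 with array weights, 2 members with the replicate block (Itgb2 at -0.55, adjusted p = 0.0471), and 178 to 202 genes and 1 member without 1 array. Between pre-col and cap LEC the 0 genes called became 13 with cyclic loess, 28 with array weights, 3 with the replicate block and 0 to 1 without 1 array. From pre-col to col LEC, 59 genes became 155 with array weights (and 1 member in place of 0), 5 with only the groups compared and 22 to 47 without 1 array. Between LEC and BEC, 17 members became 14 to 18 without 1 array, partly because Itga2 did not pass the filter without a BEC array. Against BEC, 14 to 16 members were called in cap LEC, 13 to 14 in pre-col LEC and 12 to 14 in col LEC without 1 array. Itgb1 in LEC minus BEC (0.05) turned to -0.09 with cyclic loess and to -0.02 with array weights, and ranged from -0.03 to 0.12 without 1 array. Of the values of single members, 500 kept their direction and side of the threshold under the other alternatives, while 16 newly passed, 18 no longer passed and 2 reversed. Among these alternatives only cyclic loess and array weights could change a member's difference. The rest could change its adjusted p alone, so the count of kept directions was largely fixed in advance. With 1 array left out, 622 kept both, 8 newly passed, 47 no longer passed and 1 reversed. For the further lists, alternatives were chosen after seeing the data. Between col and cap LEC, 1 regulator called became 2 with cyclic loess and 3 with array weights; 2 ligands became 4 with array weights, 4 with the replicate block, 1 with only the groups compared and 1 to 2 without 1 array; and 4 adaptors became 2 to 3 without 1 array. Between pre-col and cap LEC, 0 ligands became 1 with array weights. From pre-col to col LEC, 0 regulators became 1 with cyclic loess, array weights or the replicate block; 1 adaptor became 0 without the filter, with only the groups compared, with the replicate block or without any 1 array; and 1 ligand became 0 with only the groups compared or the replicate block and 0 to 1 without 1 array. Of the 2 other integrins, 0 called between LEC and BEC became 1 with cyclic loess and 0 to 1 without 1 array. The replicate numbers did not meet the rule for pairing, since 7 of 18 same-numbered pairs had deviations correlated over 0.1 (range -0.093 to 0.208), as did 2 of 36 pairs of other numbers (-0.143 to 0.176). Among LEC, each of 9 arrays was closest to its own number in both other groups (same number 0.046 to 0.208, other numbers -0.143 to 0.024), a hint from the data and not the design. The cause of these shifts was not tested. Dim genes, such as Itga2 in LEC and Itgb8 in BEC, are limited by their signal.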
